A study of Mus musculus with 9 samples.

Results

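The loss of Brd1 in double-positive (DP) thymocytes was described from 2 of the 9 arrays of the series, 1 of DP cells of control mice and 1 of DP cells of Brd1 conditional knockout (CKO) mice. The arrays were one-colour (Cy3) Agilent expression arrays. Cells sorted for both CD4 and CD8 came from C57BL/6 mice at 8 weeks of age. The control genotype was Brd1+/+ with Tie2-Cre and the CKO genotype was Brd1flox/flox with Tie2-Cre, so both genotypes carried the Cre transgene. Tie2-driven Cre acts in endothelial cells and in the blood lineage from its stem cells on, so that a floxed gene is lost before T cells form and also in the other blood cells of the animal. The series holds CKO and control arrays of CD4 single-positive (CD4SP) and CD8 single-positive (CD8SP) cells at 8 weeks and of CD8SP cells of OT-I mice, which carry a transgenic T cell receptor, at 14 weeks. The ninth array holds CKO cells sorted as CD4SP but lacking TCRβ at the surface. The 3 other pairs share no array with the DP pair. The labels do not say how many mice stand behind an array. The labelling protocol names RNA equivalent to 30000 cells.

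Brd1 is the bromodomain scaffold of an acetyltransferase complex in which the enzyme Kat7 (HBO1) acetylates histone H3, and it has been studied for its part in switching on the Cd8 genes in developing T cells. Thymocytes pass from a double-negative (DN) stage, driven by Notch and the pre-T cell receptor, to the DP stage, at which the T cell receptor alpha locus is rearranged by Rag1 and Rag2. DP cells whose receptor is selected become CD4SP or CD8SP cells, switch on Klf2, S1pr1 and Il7r and leave the thymus. The comparison of the DP arrays asks which transcripts differ with genotype at the last stage before the CD4 and CD8 lineages part.

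All values are log2 signals relative to the 75th percentile of the array, called levels, and a difference is the CKO level minus the control level. With 1 array per genotype a difference has no replicate check and no p-value, and "higher" and "lower" compare these arrays. The error model of the scanner software gave a difference a median error of 0.20, and 204 probes printed in 10 spots and well above background on both arrays gave a median standard error of 0.03 over spots. Both cover the measurement on an array and not the spread between mice. Where a probe was marked well above background on only 1 array, the difference is also given as a bound ("at least"), taken against the lowest level well above background on the other array or the probe's own level there, whichever was higher.

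The DP label held on both arrays. Levels in the control and the CKO were 8.07 and 8.09 for Rag1, 4.75 and 4.71 for Rag2, 3.84 and 3.94 for Ptcra, and 8.94 and 9.26 for Cd3d. Of the markers of other cells, Ncr1 and Klrb1c of natural killer (NK) cells, and Krt8, Psmb11 and Col1a1 of stroma were well above background on neither array. Transcripts of granulocytes did differ. S100a9, a calcium-binding protein of neutrophils, was 2.71 in the control and -2.88 in the CKO, S100a8 was 1.33 in the control and not well above background in the CKO (at least 24.2-fold lower), and Camp was 0.77 and -2.63. Mpo was -0.97 and -3.12, Lcn2 was -1.78 and -2.44, and Elane was 1.93 and 2.09. Over the 6 of 11 granulocyte markers measured, the summed linear signal was 15.4 times the 75th percentile in the control and 4.92 times in the CKO. In bulk RNA, fewer cells of a type and less RNA per cell cannot be told apart, and the part of these cells in the results below was not tested.

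Erythroid markers went the other way for the globins. Hba-a1 was 1.74 in the control and 3.48 in the CKO, and Hbb-b2 was -0.86 and 0.98. Alas2, the first enzyme of haem synthesis in red cell precursors, was well above background in the CKO alone (at least 1.69-fold higher), while Car2 was -0.39 in the control and not well above background in the CKO (at least 7.35-fold lower). Car1 was -1.43 and -2.10, and Slc4a1 was -1.75 and -1.15. The summed signal of the 6 of 10 markers measured was 5.39 in the control and 14.1 in the CKO.

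Of 17 myeloid and dendritic markers, 15 were measured, with a summed signal of 628 in the control and 442 in the CKO. Siglech, of plasmacytoid dendritic cells, carried most of it on its brighter probe (9.06 and 8.55), and without Siglech the sums were 95.1 and 67.7. The second Siglech probe (-3.84 and -3.59) was well above background on neither array, so the full sums rest on a single probe that its partner does not bear out. C1qa, a complement chain of macrophages, was -2.20 in the control and -0.62 in the CKO, and Lyz2 was well above background in the CKO alone (at least 2.19-fold higher). The class II gene H2-Aa was -0.02 and -0.90. Csf1r was 4.05 and 4.04 on its brightest probe, and its other probes read 1.3 and 0.63, and -1.53 and -1.38. Of 8 B cell markers, 5 were measured, with summed signals of 15.9 and 15.5. Cd79a and Ms4a1 were near the detection limit in the control and below it in the CKO (at least 1.21-fold and 1.27-fold lower), Jchain was 0.46 and -0.22, Cd79b was 3.78 and 3.80, and Blnk was -0.91 and -0.78. The epithelial adhesion gene Epcam was -1.80 in the control and 1.31 in the CKO, while the 5 other stromal and epithelial markers measured, of 14 listed, lay within 2-fold: Krt5 at -0.33, Cldn4 at -0.12, Ccl25 at 0.01, Pecam1 at 0.32 and Col1a2 at 0.36. Of the platelet markers, Pf4 was -2.79 and -2.63 and the 3 others were not well above background. Of the gamma delta T cell markers, Sox13 was 0.88 and 0.98, and Cd163l1 was well above background in the CKO alone (at least 1.74-fold higher). The Y-linked genes Uty, Ddx3y and Eif2s3y were well above background on both arrays and Kdm5d on the control array alone. Both Xist probes were well above background on neither.

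The DP arrays had 25489 probes (control) and 24077 probes (CKO) well above background of 55537, and they lay on the same slide. Of the named genes, 12057 were well above background on at least 1 DP array. The CKO array was more than 2-fold higher for 634 of these genes, 5.26% of those compared, and more than 2-fold lower for 612, or 5.08%. The median difference was 0.20, and 67.02% of genes had a positive one. Scaled instead to the 75th percentile of probes detected on both arrays, the median was -0.018 and the counts were 430 higher and 883 lower, so that 32.75% of the genes past 2-fold were higher, compared with 50.88%. Setting the median difference to 0 gave 436 higher and 870 lower, or 33.38% higher. Lists are therefore read here against the median of 0.20, and their counts past 2-fold against the 5.26% higher and 5.08% lower of all genes. Both references change with signal, as given below. Lists and members were chosen with earlier results of these data known, so the counts describe them and give no independent support. Members seen on 1 array alone passed the filter only through the array where they were higher. Each count of list members past 2-fold in the DP pair given from the DP stage genes on was the same with members seen on 1 array taken at their bound.

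Part of the genes past 2-fold were faint. Of the 634 higher genes, 251 were not well above background in the control, and of the 612 lower genes, 355 were not well above background in the CKO. With such genes taken at their bound, 530 higher and 431 lower genes remained past 2-fold. Among the 11038 genes well above background on both arrays, 383 were higher (3.47%) and 257 were lower (2.33%). Among the 2760 of these with the highest signal, 31 genes were more than 2-fold higher and 8 were more than 2-fold lower. Of named probes with a level below -2 on the brighter array, 12.26% were higher and 16.71% lower. At -2 to 0 the shares were 6.67% and 8.98%, and above 2 they were 2.13% and 0.93%. The all-gene shares are thus low for lists of faint members, such as the cytotoxic and regulatory T cell genes (median CKO levels of -0.37 and -0.75). With a background correction that compresses faint signals (normexp), 154 genes were past 2-fold higher and 114 lower. Of these, 154 and 111 were past 2-fold also without it. The 163 genes more than 4-fold higher and the 224 more than 4-fold lower included 46 and 81 beyond 8-fold. Genes with several probes show the precision in another way. For 2717 genes with at least 2 probes well above background on both arrays, the differences of a gene's probes spanned 0.21 at the median. Of the 210 of these genes with any probe past 2-fold, all probes of 44 were past 2-fold the same way and all probes of 162 had the same sign.

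**Figure D1:**
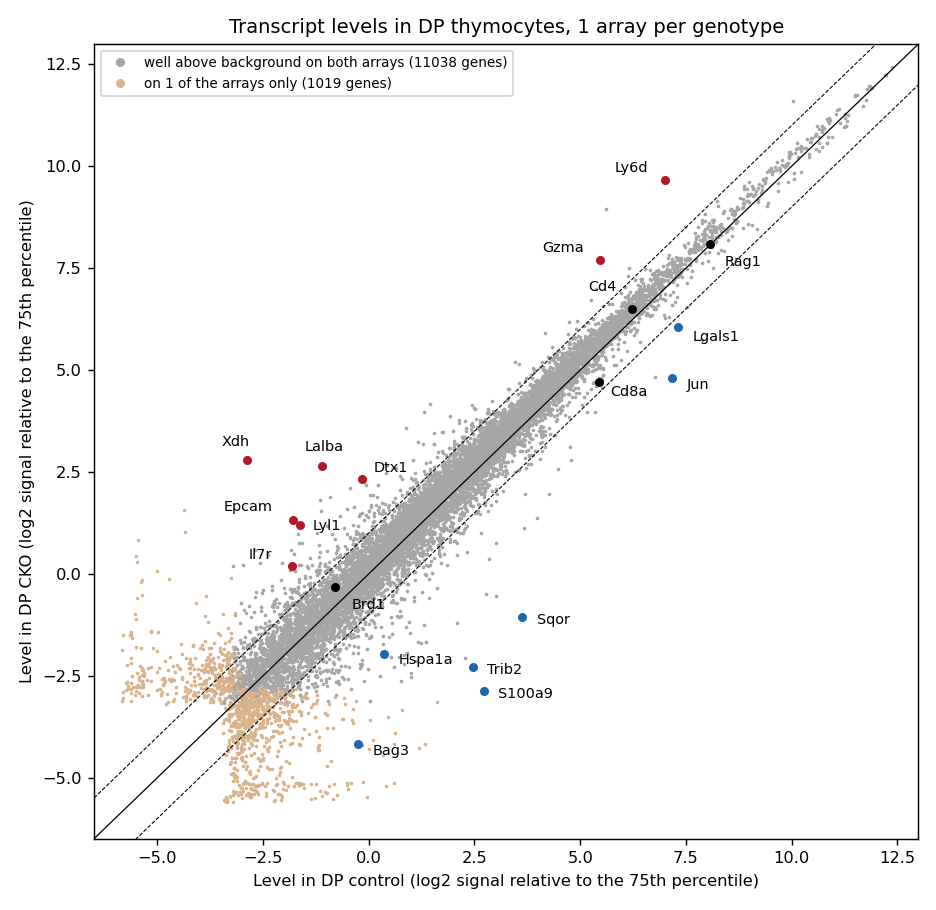
Level of each of 12057 named genes in the DP control (horizontal axis) and the DP CKO array (vertical axis), as log2 signal relative to the 75th percentile of the array. Grey points were well above background on both arrays and tan points on 1 only, the solid line marks equal levels and the dashed lines a 2-fold difference. Ly6d (7.00 and 9.67) and Jun (7.17 and 4.81) stand apart from other bright genes, while Rag1 (8.07 and 8.09) lies on the line.

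The transcript of Brd1 itself was not lower on the array labelled CKO. Its only probe read -0.79 in the control and -0.33 in the CKO, a difference of 0.46. Which exon the probe reads, and whether that exon is among those removed, was not known, so the value is no check of the deletion. Brd1 works with the acetyltransferase Kat7 and the small subunits Meaf6, Ing4 and Ing5. The list also holds the related scaffolds Brpf1, Brpf3 and Jade1 to Jade3. None of the 12 genes of Brd1 and its relatives was past 2-fold, and their median difference was 0.04, against 0.20 over all genes. Kat7, the catalytic partner, was 4.67 and 4.71. The reader proteins Ing4 and Ing5 differed by 0.68 and 0.02, and Meaf6 differed by 0.31. The scaffolds Brpf1, Brpf3, Jade1 and Jade2 differed by 0.14, 0.04, -0.25 and 0.25, and Jade3 was well above background in the control alone (at least 1.28-fold lower). The related enzymes Kat6a and Kat6b were lower, at 2.68 and 2.28 and at 0.10 and -0.58.

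Of 11 other histone acetyltransferases and deacetylases, none was past 2-fold. Ep300, the p300 acetyltransferase, was 0.08 in the control and -0.92 in the CKO, just inside 2-fold with a difference of -0.998. Its paralog Crebbp was 6.12 and 6.15. The difference was 0.81 for Kat2a, 0.50 for Hdac7, 0.42 for Hdac3 and 0.30 for both Kat5 and Kat8.

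Of the co-receptor genes, both chains of CD8 were lower in the CKO and Cd4 was higher, all within 2-fold. Cd8a, which encodes the alpha chain, was 5.46 in the control and 4.71 in the CKO, 1.67-fold lower (difference -0.74, error 0.20). Its second probe read 5.11 and 4.68, a difference of -0.43. Cd8b1, the beta chain, was 6.65 and 6.33, a difference of -0.32. Cd4 was 6.22 and 6.49 on its brighter probe, a difference of 0.27, and 0.40 and 0.35 on the fainter. Both Cd8 genes thus lay below the all-gene median and the brighter Cd4 probe lay near it. Scaled by quantiles over the 9 arrays, the Cd8a difference was -1.04. In the other pairs Cd8a differed by -0.89 (CD4SP), 0.10 (CD8SP) and -0.26 (OT-I).

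The promoter of Cd8a is shown because Cd8a had the widest difference of the co-receptor genes. It is the RefSeq window from 250 bases before to 50 after the transcription start (GRCm38.p6, chr6:71373177-71373476, plus strand), 5′ to 3′, with matches to the E-box CANNTG, the letters that E proteins such as Tcf3 and Tcf12 recognise, in capitals.
Cd8a promoter: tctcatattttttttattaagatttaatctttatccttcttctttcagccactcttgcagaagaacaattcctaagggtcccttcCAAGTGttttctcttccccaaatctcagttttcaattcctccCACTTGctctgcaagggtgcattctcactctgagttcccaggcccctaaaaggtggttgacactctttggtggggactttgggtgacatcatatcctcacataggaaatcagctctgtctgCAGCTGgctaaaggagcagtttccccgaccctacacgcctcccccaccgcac
The pattern reads the same on both strands. It was found 3 times, starting at -165, -123 and -2 from the transcription start, and no match overlapped another motif searched. Of 32851 promoter windows of this length, 72.31% held at least 1 such match.

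Transcription factors of the T lineage lay close to the all-gene median. The 20 factors listed as regulators of Cd4, Cd8 and T cell identity had a median difference of 0.26 against 0.20 over all genes, and 12 of the 20 lay above that 0.20. All 20 were positive, compared with 12 when the median difference was set to 0 and 10 with quantile normalization. Zbtb7b (ThPOK), which directs the CD4 lineage, was 6.30 and 6.54, and Bcl11b was 5.15 and 5.24. Runx3, which directs the CD8 lineage, was faint at -2.46 and -1.84. Runx1 alone of the 20 was past 2-fold on its brightest probe, a share near the 5.26% of all genes. It was 2.62 and 3.67 there, while its second probe read 1.44 and 1.57. Lef1 differed by 0.85, and the chromatin remodellers Chd4, Mta2 and Smarca4 by 0.43, 0.43 and 0.37. Of the E proteins and their Id inhibitors, Tcf3 differed by 0.41, Tcf12 by 0.03, Tcf4 by -0.52, Id1 by -0.52, Id2 by 0.23 and Id3 by -0.20. Lyl1, a related factor of early progenitors, stood apart and is described with the DN genes.

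Genes that mark the DP stage were alike on both arrays. None of the 17 DP stage genes was past 2-fold, and their median difference was 0.16. Few genes this bright were past 2-fold: of named probes with a level above 2, 2.13% were higher and 0.93% lower. Dntt, the terminal transferase, was 10.30 and 10.46, and Ccr9, the thymic chemokine receptor, was 7.03 and 7.32. The widest differences were -0.78 for Ets2, 0.72 for Tdrd5, 0.53 for Aqp11, 0.42 for Slc29a1 and 0.41 for Endou. Bcl2l1, which encodes the survival protein of DP cells, was 7.52 and 7.47. The CD3 chains were all higher in the CKO, within 2-fold and under each scaling run, with differences of 0.32 for Cd3d, 0.49 for Cd3e, 0.62 for Cd3g and 0.54 for Cd247, and of 0.10 for the pre-T cell receptor chain Ptcra, which was -0.11 with the median difference set to 0. Under the scaling that put the all-gene median at -0.012, the median of these 5 genes was 0.28.

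Of 18 genes of proximal T cell receptor signalling, Lat alone was past 2-fold on its brightest probe, a share near the 5.26% of all genes. The list's median was 0.30. Lat, the membrane adaptor, was 7.48 in the control and 8.52 in the CKO. The kinases Lck, Zap70 and Fyn differed by 0.40, 0.45 and 0.83, and Ptpn22, a phosphatase, by 0.68. Rasgrp1 differed by -0.47 and Cblb by -0.70 on its brighter probe, while the fainter probe of Cblb was well above background in the CKO alone (at least 4.71-fold higher). Among 13 measured reporters of positive selection, 2 were past 2-fold higher, beside 5.26% of all genes. The checkpoint receptor gene Pdcd1 was 1.76 and 2.96, and Bcl2l11, which encodes the death protein Bim, was -0.96 and 0.17. Nearest inside 2-fold were Nr4a1 at 0.72 and Itm2a at -0.71. Cd69 differed by 0.65, Egr1 by 0.34, Egr2 and Cd5 both by 0.24, and the median of the list was 0.24.

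Genes of the DN stage and of Notch signalling had a median difference of 1.1 over the 10 members measured, or 0.49 with normexp correction and 0.28 with no filter on dim probes. The other 6 of the 16 listed (Erg, Hes1, Hhex, Kit, Mef2c and Spi1) were well above background on neither array. Of the 10 measured, 6 were more than 2-fold higher in the CKO and none was more than 2-fold lower, beside 5.26% and 5.08% of all genes. Dtx1, a direct Notch target, was -0.15 in the control and 2.33 in the CKO. Lyl1 was -1.62 and 1.21, or 7.11-fold higher, and Myc was -0.75 and 0.68. Il2ra, the CD25 chain of DN cells and regulatory T cells, was -1.20 and 0.09, and Notch3 was 1.54 and 2.63. Nrarp, another Notch target, was well above background in the CKO alone (at least 2.18-fold higher). The other 4 were within 2-fold, with differences of 0.45 for Notch1, 0.32 for Gfi1 and -0.21 for Cd44. A second probe of Cd44 went the other way, at -1.64 and -0.70. Bcl11a was well above background in the control alone (at least 1.23-fold lower). The 6 higher genes are Notch receptors and targets (Notch3, Dtx1, Nrarp and Myc), an early progenitor factor and a cytokine receptor chain. They do not all mark early cells alone. On the CD4SP, CD8SP and OT-I control arrays Dtx1 was 2.9, 3.1 and 4.7 and Myc 1.3, 2.6 and 1.8, above the DP control. Il2ra (1.81 and 0.53) and Lyl1 (-0.40 and -0.05) were above it in CD4SP and OT-I cells, but not in CD8SP cells. Notch3 was below it on each (-1.18, 1.18 and 0.96), and Nrarp was well above background on none of them.

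**Figure D2:**
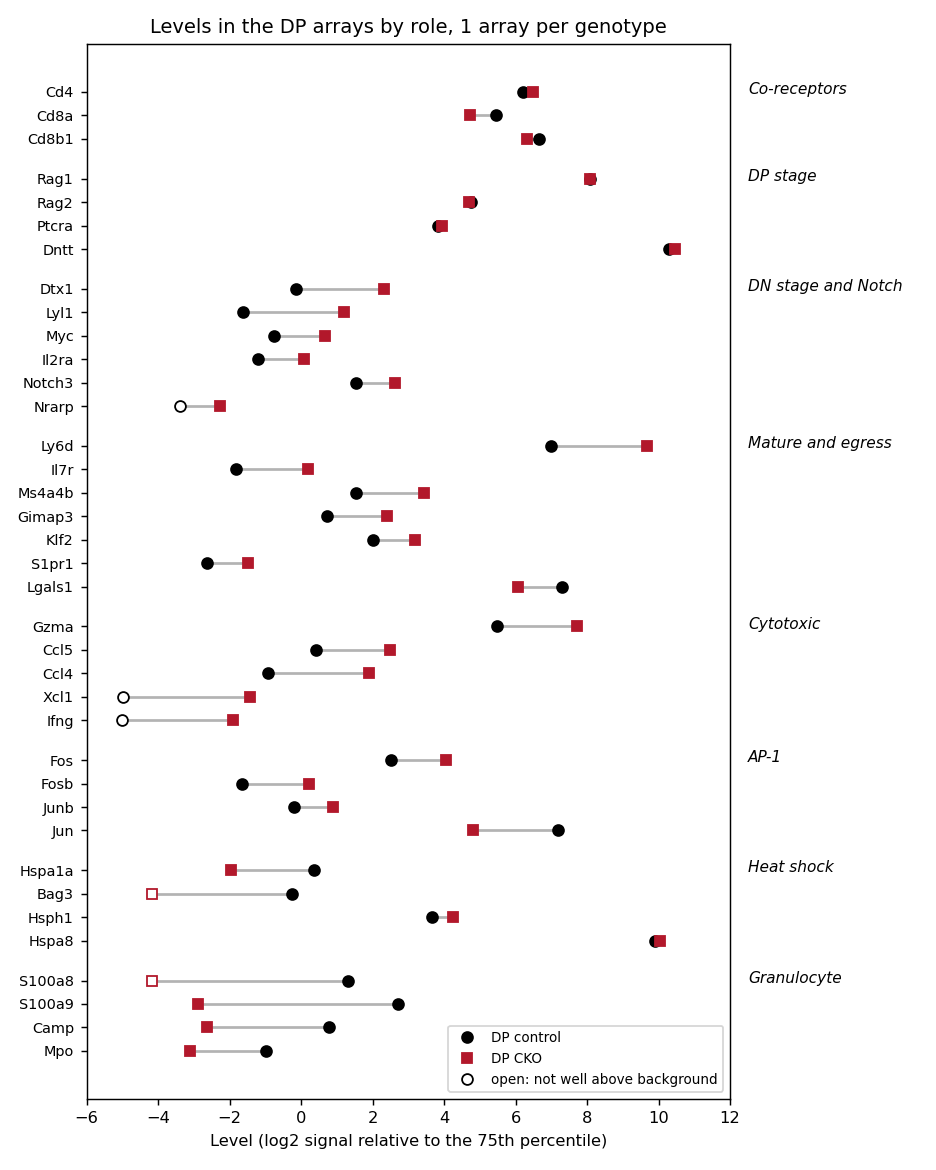
Levels of selected genes in the DP control (black circles) and DP CKO (red squares) arrays, grouped by role, as log2 signal relative to the 75th percentile of each array. Open symbols were not well above background. Symbols of the DP stage genes overlap, while Dtx1, Lyl1, Ly6d, Il7r, Gzma and Fos are higher and Jun, Hspa1a, Bag3 and the granulocyte genes lower in the CKO.

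Genes of mature thymocytes and of thymic exit were higher in the CKO array as a list. Of 32 measured, 8 were more than 2-fold higher and 1 was more than 2-fold lower, beside 5.26% and 5.08% of all genes, 29 had a positive difference, 27 lay above the all-gene median, and the median was 0.58 against 0.20 over all genes. Ly6d, a surface protein also found on early lymphoid cells, was 7.00 in the control and 9.67 in the CKO. On the other control arrays Ly6d was 3.77 (CD4SP), 6.67 (CD8SP) and 2.39 (OT-I), so it was not higher in the more mature cells. The summed signal of the list was 1046 in the control and 1887 in the CKO, or 918 and 1072 without Ly6d. Il7r, the interleukin-7 receptor chain that DP cells switch off, was -1.81 and 0.20, and Ms4a4b was 1.54 and 3.45. Gimap3, a GTPase of lymphocyte survival, was 0.73 and 2.39, and the other 7 Gimap genes listed were higher within 2-fold, from 0.30 for Gimap8 to 0.93 for Gimap4. Just outside 2-fold were the exit receptor S1pr1 (-2.62 and -1.47) and its regulator Klf2 (2.02 and 3.18), and just inside were Gimap4 and Gimap7 at 0.93 and 0.90. Itgb7 differed by 1.16, and Ms4a6b was well above background in the CKO alone (at least 2.36-fold higher). Lgals1, which encodes galectin-1, was the member more than 2-fold lower, at 7.31 and 6.06, and Foxo1, which drives Klf2, was 2.72 and 2.00. Ccr7, a chemokine receptor for entry into lymph nodes, differed by 0.54.

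Receptors for chemokines and cytokines held a few large differences. Cxcr6, a homing receptor of memory and innate-like T cells, was -1.66 and 0.76. The 5 other chemokine receptors measured were within 2-fold, at 0.54 for Ccr7, 0.29 for Ccr9, -0.11 for Ccr4 and -0.19 for Cxcr4, with Cxcr3 well above background in the control alone (at least 1.83-fold lower). Of 19 cytokine receptor and feedback genes, 6 were more than 2-fold higher and none was more than 2-fold lower (5.26% and 5.08% of all genes), and the median was 0.51. Besides Il7r and Il2ra these were Il6ra (-1.86 and 0.08), Il2rb (-1.80 and -0.43), the feedback inhibitor Socs3 (1.46 and 2.75) and Socs2, which was well above background in the CKO alone (at least 2.13-fold higher). Nearest inside 2-fold was Cish, another feedback inhibitor, at 0.83. The shared chain Il2rg differed by 0.54, and Il4ra by -0.68.

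Cytotoxic and memory-like genes were higher in the CKO array as a list. Of 15 measured, 7 were more than 2-fold higher and none was more than 2-fold lower, beside 5.26% and 5.08% of all genes. Xcl1, Ifng and Fasl were measured through the CKO array alone. The median was 0.90, or 0.80 with genes seen on 1 array taken at their bound and 0.44 with normexp. Gzma, a granzyme of killer cells, was 5.47 in the control and 7.71 in the CKO, 4.71-fold higher. The summed signal of the list was 60.5 in the control and 238.7 in the CKO, or 16.0 and 29.3 without Gzma. In the other pairs Gzma differed by 2.56 (CD4SP), -0.25 (CD8SP) and -3.31 (OT-I), where the list had medians of -0.50, 0.79 and 1.60. The chemokines Ccl4 and Ccl5 were -0.92 and 1.89, and 0.41 and 2.48. Xcl1 and Ifng were at least 4.20-fold and 3.01-fold higher. Nearest outside 2-fold were Cst7 and Il2rb at 1.14 and 1.37. Fasl was at least 1.42-fold higher, and Cxcr3, seen in the control alone, at least 1.83-fold lower. Ctsw, a protease of killer cells, differed by 0.80. Tbx21, which drives this program, was -0.47 and -0.37, Prf1, which encodes perforin, differed by 0.46, and Gzmb and Eomes were well above background on neither array. Of 7 NK and NKT cell markers, 2 were measured, Klra1 at 0.91 and 0.00 and Zbtb16 at -1.73 and -1.50. Their summed signal was 2.18 in the control and 1.36 in the CKO, and the defining NK markers Ncr1 and Klrb1c were not well above background on either array.

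Regulatory T cell genes had a median difference of 0.82, or 0.40 with normexp and 0.66 over the 9 members well above background on both arrays. Of the 10 measured, 4 were more than 2-fold higher and 1 was more than 2-fold lower, beside 5.26% and 5.08% of all genes. Tnfrsf18, which encodes GITR, was 3.72 and 4.82. Foxp3, the defining factor, was -2.61 and -1.63, just inside 2-fold. Ctla4 was well above background in the CKO alone (at least 3.53-fold higher), and Lrrc32, which presents latent TGF-beta, was -2.84 and -1.40. Ikzf2 (Helios) went the other way, at 1.43 and -0.14. The difference was 1.29 for Il2ra, 0.66 for Ikzf4, 0.63 for Nrp1, 0.43 for Izumo1r and 0.37 for Tnfrsf4.

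**Figure D3:**
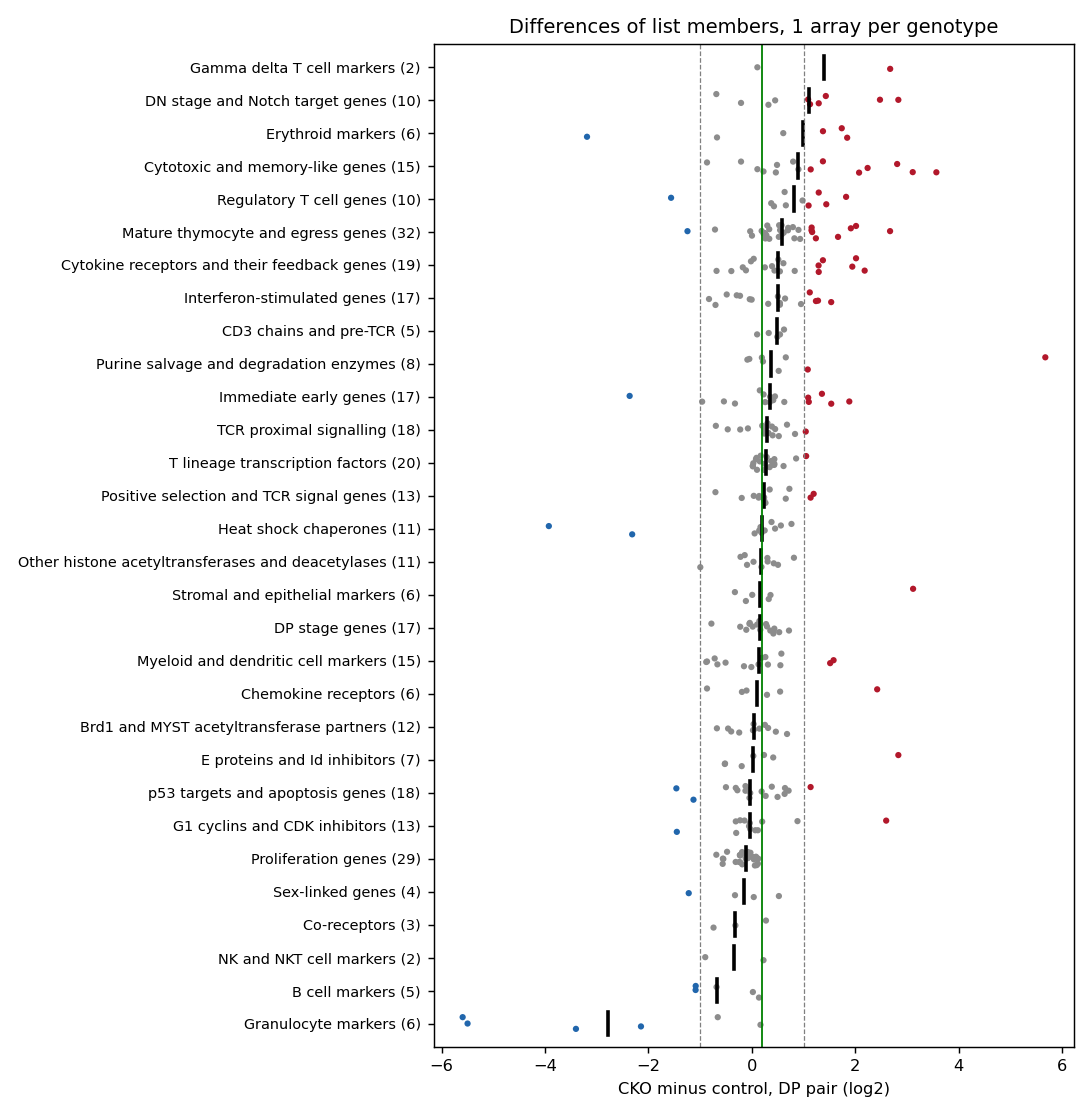
Difference between the DP arrays, CKO minus control on the log2 scale, for the measured members of each gene list (number in brackets). Points are genes, red more than 2-fold higher, blue more than 2-fold lower and grey within 2-fold, black bars are list medians, the green line is the all-gene median of 0.20 and dashed lines mark 2-fold. The DN and Notch, cytotoxic, regulatory T cell and mature lists lie to the right of the green line, the granulocyte markers far to the left, and the DP stage and proliferation lists hold no gene past 2-fold.

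The immediate early genes split within the AP-1 family. Jun, a core AP-1 subunit, was 7.17 in the control and 4.81 in the CKO, 5.15-fold lower. Fos, its partner, was 2.51 and 4.04, and Fosb was -1.66 and 0.22. Junb differed by 1.1 and Jund by 0.15. Of the 17 genes measured, 5 were more than 2-fold higher, beside 5.26% of all genes, and 1 was more than 2-fold lower, a share near the 5.08% of all genes. The median was 0.35. The phosphatase gene Dusp2 was 6.16 and 7.51, and Ppp1r15a, a stress phosphatase subunit, was 4.91 and 6.00, just outside 2-fold. Klf4 was just inside at -0.96. Jun alone was more than 2-fold lower, and 13 of the 17 genes had a positive difference.

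The heat shock list was level except for 2 members. Of 11 chaperone genes measured, 2 were more than 2-fold lower and none was more than 2-fold higher, beside 5.08% and 5.26% of all genes, and the median was 0.19. Hspa1a, an HSP70 gene that is silent until stress, was 0.36 in the control and -1.96 in the CKO. Hspa1b, its near-identical copy, had no named probe, so the signal of both copies cannot be told apart. Bag3, an HSP70 co-chaperone, was -0.26 in the control and not well above background in the CKO (at least 8.06-fold lower). The constitutive Hspa8 was 9.89 and 10.03, and Hsp90ab1 was 8.27 and 9.03. Hsph1 differed by 0.56, Hspa5 by 0.45, Hspe1 by 0.38, Hsp90aa1 by 0.19 and Dnajb1 by 0.05.

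The promoters of both lower genes are shown because they are the members of the list past 2-fold. They are RefSeq windows from 250 bases before to 50 after the start (GRCm38.p6), 5′ to 3′, with matches to a heat shock element core, GAANNTTC, in capitals. Hspa1a lies at chr17:34972107-34972406 on the minus strand and Bag3 at chr7:128523333-128523632 on the plus strand.
Hspa1a promoter: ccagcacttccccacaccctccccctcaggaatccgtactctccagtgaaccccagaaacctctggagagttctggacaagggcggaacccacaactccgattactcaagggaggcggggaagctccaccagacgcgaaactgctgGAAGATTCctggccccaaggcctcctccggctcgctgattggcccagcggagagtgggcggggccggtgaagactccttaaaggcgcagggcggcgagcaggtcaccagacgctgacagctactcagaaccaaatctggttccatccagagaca
Bag3 promoter: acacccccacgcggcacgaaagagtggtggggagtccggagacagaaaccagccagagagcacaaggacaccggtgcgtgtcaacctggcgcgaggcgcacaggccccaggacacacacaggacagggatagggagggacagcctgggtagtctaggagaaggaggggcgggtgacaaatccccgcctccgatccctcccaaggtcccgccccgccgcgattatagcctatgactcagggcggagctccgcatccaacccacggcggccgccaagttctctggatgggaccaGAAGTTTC
The pattern reads the same on both strands. Its match starts at -104 in Hspa1a and at 42 in Bag3, neither overlaps another motif searched, and 7.86% of all 32851 windows hold one. Of the 15 windows of 10 chaperone genes, 9 held a match. By gene, 8 of the 10 held a match in at least 1 window, among them Hsph1 and Dnaja1, which lay within 2-fold. The 10 include Hspa1b and Hspb1, which were not measured in the DP pair.

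Proliferation genes held no gene past 2-fold. Of 29 measured, none was above the all-gene median of 0.20, and their median was -0.12, so they lay slightly low as a list. The widest differences were in Cdc6 (-0.69), Cenpe (-0.57), Ccne1 (-0.56), Ccna2 (-0.55), Ccnb1 (-0.48) and Top2a (-0.31). The replication genes Mcm2 to Mcm7 lay between -0.03 and 0.10, and Mki67 was 5.18 and 4.95. Of the cell cycle regulators, Ccnd3, a D-type cyclin of thymocyte expansion, was 8.51 and 8.46, Ccnd2 differed by 0.88, the inhibitor Cdkn1c was 0.84 and -0.61, and Cdkn2a was well above background in the CKO alone (at least 2.10-fold higher). E2f2 and Cdkn1a differed by -0.30 and -0.31.

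Of 18 p53 target and apoptosis genes, 1 was more than 2-fold higher, a share near the 5.26% of all genes, and 2 were more than 2-fold lower, beside 5.08%. The median was -0.04. The death receptor gene Fas was 3.83 in the control and 2.70 in the CKO, and Pmaip1, which encodes Noxa, was well above background in the control alone (at least 2.75-fold lower). Bcl2l11 was the higher gene, and Trp53 itself, Aen and Bid differed by 0.71, 0.64 and 0.63. Interferon-stimulated genes were uneven. Xaf1 was 0.01 and 1.54, Zbp1 was 2.30 and 3.58, Irf7 was -1.98 and -0.75, and Irgm1 was 1.45 and 2.56. These make 4 of 17 more than 2-fold higher, beside 5.26% of all genes. The second probe of Irgm1 read -0.88 and -0.33, within 2-fold. Oasl2 differed by -0.83 and Rtp4 by 0.95, and the list's median was 0.50. Among 8 enzymes of purine salvage and degradation, Xdh, which makes uric acid, was -2.88 in the control and 2.79 in the CKO, 51.0-fold higher. Samhd1, which degrades deoxynucleotides, was -1.03 and 0.05 on its brighter probe, while its second probe read -2.53 and -2.17, within 2-fold. The other 6 were within 2-fold, at 0.65 for Ada, 0.52 for Aprt, 0.21 for Adk, 0.19 for Hprt, -0.05 for Dck and -0.09 for Pnp.

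Over all named genes, those with the widest differences were named if they had at least the median signal and were past 2-fold also after normexp correction. In this set 100 genes were higher and 46 lower. Of those well above background on both DP arrays, Xdh had the widest difference. Slc23a3, of an ascorbate transporter family, was well above background in the CKO alone, at 1.56 (at least 33.3-fold higher). Lalba, a milk protein gene, was -1.10 and 2.65, and Rundc3a was -1.16 and 1.82. The others among the 12 highest were Ccl4 (2.81), Igsf23 (2.71), Stra8, a gene of meiotic entry (2.70), Ly6d (2.67), Ehd3, of membrane recycling (2.66), Ncf4, an NADPH oxidase subunit (2.53), Dtx1 (2.48) and the lysosomal channel gene Mcoln2 (2.38). All 11 besides Slc23a3 were well above background on both DP arrays.

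The lowest gene of the set well above background on both arrays was S100a9. Lrig1, which restrains growth factor receptors, was 1.62 in the control and not well above background in the CKO (at least 27.0-fold lower). Trib2, a pseudokinase, was 2.46 and -2.29, Sqor, which oxidises sulfide in mitochondria, was 3.63 and -1.05, and Nhsl1 was 2.27 and -2.05. Tmcc3 was 3.01 and -0.53, Fbxw10 was 2.08 and -1.22, and Agpat4, an acyltransferase of phospholipid synthesis, was 2.76 and -0.49. The rest were Gdpd3 (-2.60), the proteoglycan core Gpc1 (-2.55), the junction protein gene Ctnna1 (-2.49) and Jun (-2.36). S100a9 is on the granulocyte list and Jun on the immediate early list, and the other 10 are on none of the lists.

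The same genes were read in the other pairs, which compare the same Brd1 genotypes in other sorted cells. The labels do not say whether pairs share mice. Of the 12 lowest genes of the DP pair, 12 of 12 were more than 2-fold lower among CD4SP cells, 8 of 12 among CD8SP cells and 6 of 10 among OT-I cells, where 4.71%, 9.55% and 16.9% of genes were more than 2-fold lower. These counts, and those of the highest genes, were the same with genes seen on 1 array of a pair taken at their bound. Sqor was lower in each pair, with bounds of -4.78 (CD4SP) and -4.12 (OT-I) on the difference and a difference of -4.66 in the CD8SP pair. Gpc1 differed by -3.13, -3.66 and -4.41. Of the 11 highest genes compared, 9 were more than 2-fold higher among CD4SP cells, 8 among CD8SP cells and 5 among OT-I cells, beside 3.42%, 5.64% and 7.59% of genes. Lalba was higher in each, by 4.07, 3.81 and 5.65. The opposite direction past 2-fold was seen in the OT-I pair alone, for Stra8 (-4.35), Ehd3 (-3.15) and Mcoln2 (-2.34).

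**Figure D4:**
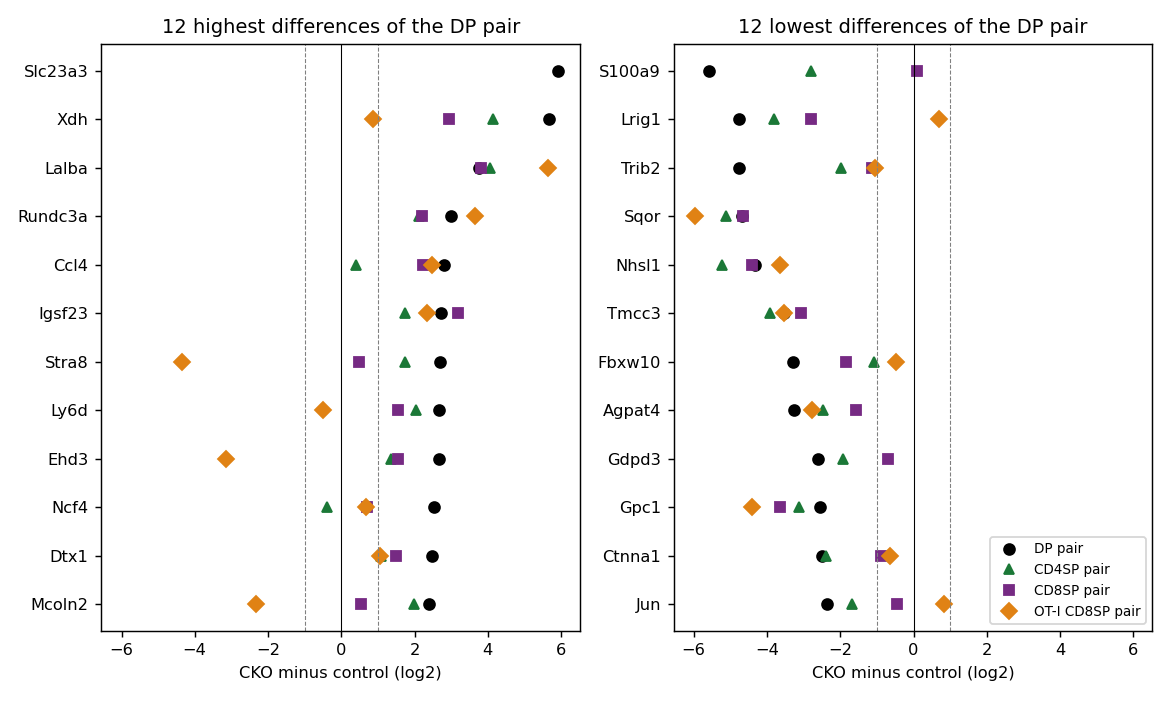
Difference, CKO minus control on the log2 scale, in the DP pair (black circles) and the 3 other pairs for the 12 highest and 12 lowest genes of the DP pair, 1 array per group. A pair has no symbol where neither of its arrays was well above background. The lowest genes lie left of 0 in most pairs, while Stra8, Ehd3 and Mcoln2 are on opposite sides in the DP and OT-I pairs.

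Genes past 2-fold in the DP pair were in part past 2-fold the same way elsewhere, in shares above the percentages of all genes just given. Of the genes more than 2-fold lower in the DP pair and compared in both, 201 of 438 were also lower in the CD4SP pair, which is 45.9% of the DP genes and 37.4% of the 537 CD4SP genes. For the CD8SP pair it was 172 of 398 (43.2%, and 16.2% of its 1063), and for the OT-I pair 163 of 379 (43.0%, and 8.65% of its 1884). Of the higher genes, 103 of 512 were also higher in the CD4SP pair (20.1%, and 26.4% of its 390), 162 of 479 in the CD8SP pair (33.8%, and 25.8% of its 628) and 156 of 470 in the OT-I pair (33.2%, and 18.5% of its 845). Genes also went the opposite way. Of the lower genes, 38 of 438 were more than 2-fold higher in the CD4SP pair (8.68%, beside 3.42% of all genes), 63 of 398 in the CD8SP pair (15.8%, beside 5.64%) and 54 of 379 in the OT-I pair (14.2%, beside 7.59%). Of the higher genes, 25 of 512 were more than 2-fold lower in the CD4SP pair (4.88%, beside 4.71%), 25 of 479 in the CD8SP pair (5.22%, beside 9.55%) and 78 of 470 in the OT-I pair (16.6%, beside 16.9%). No test of these overlaps was made. Of the genes past 2-fold, 47 higher and 105 lower genes were well above background on none of the other 7 arrays, while 332 higher and 153 lower genes were well above background on all 7.

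Lists that stood high in the DP pair did not all do so elsewhere. The DN and Notch list had a median of -0.04 among CD4SP cells, 0.86 among CD8SP cells and -0.56 among OT-I cells. The mature list had -0.06, 1.07 and 1.26, and the cytotoxic list -0.50, 0.79 and 1.60. The DP stage list, level in the DP pair, had 0.81, -0.71 and -1.79. Proliferation genes, within 2-fold in the DP pair, were more than 2-fold lower for 21 of 29 among CD8SP cells and 29 of 29 among OT-I cells. These differences between pairs were not tested.

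Probes without a RefSeq symbol differed from named ones. Of 10798 such probes compared, those to AK cDNA accessions were more than 2-fold lower in the CKO for 255 of 1013 (25.2%) and higher for 52 (5.13%). Probes that the design names by a genomic interval were lower for 805 of 5270 (15.3%) and higher for 258 (4.9%). Probes to Ensembl transcripts were lower for 12.3% and higher for 5.71%, while named probes were lower for 5.28% and higher for 4.99%. The gap was present at each signal range. Among probes with a level above 2 on the brighter array, 16.9% of AK cDNA probes and 0.93% of named probes were lower. The other pairs had the opposite tilt for AK cDNA probes, which were more than 2-fold higher in the CKO for 21.1% (CD4SP), 28.4% (CD8SP) and 23.1% (OT-I) and lower for 3.31%, 7.35% and 8.30%. The control DP array had the larger share of probes well above background, 45.9% compared with 43.4%, and the part of this in the tilt was not tested.

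**Figure D5:**
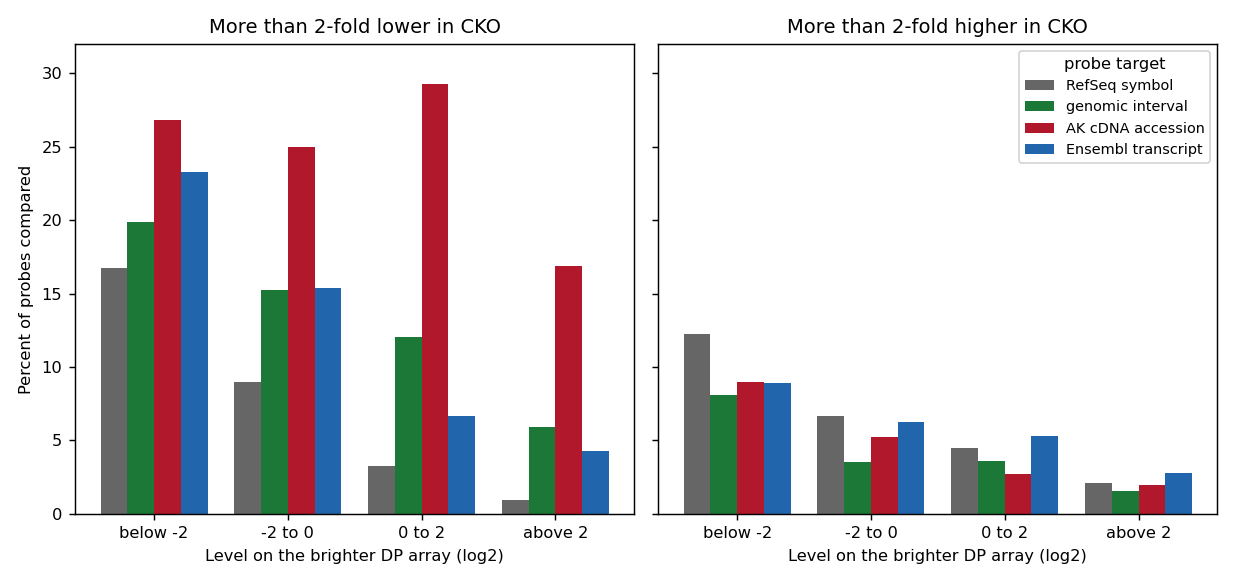
Percent of probes more than 2-fold lower (left) or higher (right) in the DP CKO array, by what the probe targets (colour) and by its level on the brighter DP array (log2 signal relative to the 75th percentile). Among lower probes the AK cDNA bars stand above the named bars in every signal range, and among higher probes they do not.

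An interval on chromosome 6 held the lowest differences among the intervals ranked. It spans chr6:121035524-121061074 on the reverse strand (mm9, as the array design gives it). Of its 4 probes compared, a pair read 1.65 and 1.64 in the control and were not well above background in the CKO (bounds of -4.92 and -4.90 on the difference). The third probe was at -2.12 in the control and not well above background in the CKO, and the fourth was -2.40 and -1.98. In the other 3 pairs the first pair of probes was likewise well above background in the control alone, with bounds on the difference of -5.01 for both probes among CD4SP cells, -3.50 and -3.54 among CD8SP cells, and -2.996 and -3.07 among OT-I cells. No gene annotation of mm9 was used here, so the interval is given by position only.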

How the data were processed

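RNA of sorted thymocytes was measured on 9 one-colour arrays of Agilent design 028005, 1 per group. The deposited scanner files give each spot's processed signal as an intensity, background-subtracted by Feature Extraction 10.7.1.1, per the file headers. The labels name a biotin protocol, while the files are those of Cy3 arrays.

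Probe values are means over spots, with 144 of 55681 probes dropped for outlier flags, and log2 signals were taken relative to each array's 75th percentile. RefSeq accessions named 26715 probes with 20258 symbols. Each gene is represented by its brightest probe, by the mean of all 9 arrays, among those well above background on at least 1 DP array. Genes past 2-fold were counted, with no test, as each genotype has 1 array. Members and the 31 gene lists were chosen with earlier results of these data known. Named were all members of the lists of Brd1 and partners, co-receptors and CD3 chains, the 12 highest and 12 lowest genes, all members of lists of 10 or fewer, and up to 6 members with the widest differences, the defining ones and those nearest 2-fold of the others. Some genes that this rule names are not reported here, though the list counts hold them. The difference computation was tested on simulated data. Alternatives were normexp (limma 3.58.1, R 4.3.3), other scalings, other filters, the median over probes, and the deposited series table, an intensity divided by the array's 75th percentile by the authors.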

Additional observations from a re-analysis of the deposited data

Results flagged for a closer look

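For 10 of the genes named here the DP pair and another pair lay past 2-fold in opposite directions, with genes seen on 1 array of a pair taken at their bound. With 1 array per group these differences between pairs were not tested. Against the CD4SP pair, the globin gene Hba-a1 differed by 1.74 (DP) and -1.14 (CD4SP), and Hbb-b2 by 1.84 and -1.59. Against the CD8SP pair, whose arrays lie on different slides, Notch3 differed by 1.09 (DP) and -1.03 (CD8SP). Against the OT-I pair, Il2ra differed by 1.29 (DP) and -2.71 (OT-I) and Gzma by 2.24 and -3.31. Hspa1a differed by -2.32 and 2.79. Car2, seen in the DP control array alone, had a bound of -2.88 on its DP difference and differed by 2.41 in the OT-I pair. Stra8 differed by 2.70 and -4.35, Ehd3 by 2.66 and -3.15, and Mcoln2 by 2.38 and -2.34. The globin genes and Car2 are markers of erythroid cells, not thymocytes.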

How the results depend on the processing

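Counts of genes past 2-fold depended on how faint signals were treated. Higher genes numbered 154 with normexp, 1177 with no filter on dim probes and 383 with both arrays required above background, compared with 634, and lower genes numbered 114, 965 and 257, compared with 612. Scaling to the 75th percentile of probes detected on both arrays, or setting the median difference to 0, put the all-gene median at -0.018 and -0.012. Under these scalings the list medians were -0.057 and -0.051 for DP stage genes, 0.89 and 0.89 for DN and Notch genes, 0.36 and 0.36 for mature genes, 0.68 and 0.69 for cytotoxic genes, -0.34 and -0.33 for proliferation genes, and -2.99 and -2.98 for granulocyte markers, with Cd8a at -0.96 and -0.95. Brd1 differed by 0.24 under the former. Quantile normalization gave -0.35 for proliferation genes and -1.04 for Cd8a. With normexp the medians were 0.49 (DN and Notch), 0.44 (cytotoxic) and -1.26 (granulocyte), and with no filter 0.28, 0.64 and -1.46. The granulocyte median was -2.15 with both arrays required. Cd79a, near the detection limit and within 2-fold at its bound, changed sign with normexp, to 0.055, and was the only named gene past 2-fold to do so under any alternative run. Of 85 named genes past 2-fold, 31 were within 2-fold with normexp, 15 under each of the scalings named first, 7 with quantile normalization, 3 with the median over probes, and none with the deposited series table. The cause of these shifts was not tested. No paired analysis was possible because the DP groups hold 1 array each and so share fewer than 2 replicate numbers. A fit with population as a block over the 4 pairs would give a genotype effect common to them, not that of DP cells, and was not run. Levels near background are the least certain, and 1 array per genotype limits every difference here.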
